A study of Mus musculus with 6 samples.

Results

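H3K27ac peaks at chemosensory receptor genes were examined in B16 F10 cells, a mouse melanoma line that the labels list as melanocytes. A peak was a member when it overlapped the body, or the 3 kb on either side, of a protein-coding gene of GENCODE for mm10 whose symbol starts with Olfr, Vmn1r or Vmn2r. These were 315 of 57942 and 155 of 66580 peaks in the LP libraries, and 162 of 64759 and 136 of 71529 peaks in the HP libraries. Merged over the 4 libraries they formed 726 of 182956 regions. The symbols gave 1466 genes, 1135 of them Olfr, 209 Vmn1r and 122 Vmn2r, on 19 chromosomes, and their merged windows covered 20.8 Mb.

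H3K27ac, an acetylation of histone H3 found at active promoters and enhancers, was profiled by ChIP-seq on day 5 of the progressive pigmentation model. All cells were seeded at 100 cells per cm2 and no label gives a genotype or drug difference between them. They were sorted by side scatter into low-pigment (LP) and high-pigment (HP) cells, with 2 libraries each, written LP 1, LP 2, HP 1 and HP 2. IgG libraries of unsorted cells were the control for peak calling, 1 for each replicate number, so that no IgG peak list was compared. Nothing in the labels says that replicates were separate cultures, so p-values measure only the spread between these libraries. A single line was used, and side scatter stands in for pigment content, so the sorted cells may include neighbouring states.

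Olfactory receptors (Olfr) are G protein-coupled receptors of sensory neurons in the nose, and each neuron normally expresses a single one of them. Vmn1r and Vmn2r are the corresponding receptors of the vomeronasal organ, which detects pheromones and related cues. The genes lie in large clusters of related copies, and in the neurons themselves most of them are held silent in heterochromatin. In melanoma cells most are presumed silent, although a few olfactory receptors are known to be expressed outside the nose.

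The depth was 11467942 and 15353176 fragments in LP and 11483830 and 14254904 in HP. The IgG controls had 8701778 fragments for replicate 1 and 19358733 for replicate 2. The part of this difference in the fold enrichments and q-values was not tested. Of 9 melanocyte genes, 5 (Mitf, Sox10, Tyr, Dct and Pmel) had a peak within 1 kb of the start in all 4 libraries, Mlana and Tyrp1 had one in 3, Kit and Ednrb in 1, and 0 had none. Of all protein-coding genes other than receptors, 48.5% had a start peak in all 4 libraries and 31.6% in none. Of the keratinocyte, fibroblast and endothelial genes listed none had one in all 4, but the fibroblast genes Col1a1 and Pdgfra had one in 3 libraries and the endothelial gene Pecam1 in 2. LP 1 stood apart in the receptor windows, as given below, and values that rest on it are given without it.

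The sequences below show the base composition of the regions that recurred. They are the 7 receptor regions called in all 4 libraries, and the region with the lowest mean rank among those called in both HP libraries and in neither LP library. Each is the stretch of 121 bases nearest the summit that holds no annotated untranslated base, read 5′ to 3′ from the RefSeq sequence of GRCm38 (mm10), with every CpG dinucleotide in capitals. Coding bases were not left out, so a stretch may hold some. A label names the region that the stretch was cut from.
Ndufa10 promoter in the Olfr1416 window, chr1:92473542-92473662, + strand: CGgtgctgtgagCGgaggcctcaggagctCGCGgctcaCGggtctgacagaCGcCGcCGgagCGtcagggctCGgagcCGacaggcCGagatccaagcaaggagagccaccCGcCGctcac
Nt5c3 promoter beside Vmn1r4, chr6:56923689-56923809, + strand: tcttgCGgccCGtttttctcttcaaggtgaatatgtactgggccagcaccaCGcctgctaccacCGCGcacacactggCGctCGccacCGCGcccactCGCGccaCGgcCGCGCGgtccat
Zfp202 promoter in the Olfr986 window, chr9:40192518-40192638, + strand: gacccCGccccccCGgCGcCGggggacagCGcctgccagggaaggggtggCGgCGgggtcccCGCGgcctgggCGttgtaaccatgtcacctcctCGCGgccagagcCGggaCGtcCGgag
Zfp174 promoter in the Olfr15 window, chr16:3847147-3847267, + strand: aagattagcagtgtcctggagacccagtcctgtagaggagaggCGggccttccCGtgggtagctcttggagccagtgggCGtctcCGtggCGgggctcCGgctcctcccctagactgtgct
AI987944 promoter in the Vmn2r57 window, chr7:41393106-41393226, + strand: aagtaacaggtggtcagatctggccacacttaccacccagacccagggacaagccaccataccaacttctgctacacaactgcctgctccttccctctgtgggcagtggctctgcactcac
Olfr543/Olfr544 region, chr7:102478659-102478779, + strand: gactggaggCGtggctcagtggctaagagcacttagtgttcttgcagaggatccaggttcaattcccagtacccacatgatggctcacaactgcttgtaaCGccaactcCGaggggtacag
Olfr552 region, chr7:102597828-102597948, + strand: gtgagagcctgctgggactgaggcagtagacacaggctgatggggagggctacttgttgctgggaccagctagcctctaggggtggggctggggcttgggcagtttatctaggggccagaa
Olfr750 region, HP libraries only, chr14:51063620-51063740, + strand: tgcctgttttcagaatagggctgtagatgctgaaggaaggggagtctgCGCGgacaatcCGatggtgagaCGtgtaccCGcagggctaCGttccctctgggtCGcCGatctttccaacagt
The first 3 held 14, 15 and 15 CpG in 121 bases, and each was cut from a region at the promoter of a gene that is no receptor. The Nt5c3 stretch opens with ATG on the other strand, so its CpG count may be that of coding sequence. The Zfp174 stretch held 6, and the AI987944 stretch, from the promoter region in the Vmn2r57 window, held 0. The regions at receptors themselves were poor in CpG, with 3 in the Olfr543/Olfr544 stretch and 0 in the Olfr552 stretch. The Olfr543/Olfr544 stretch lay within HP peaks and outside the LP peaks of its region. Repeats made up 54.2% of the 201 bases around that summit. The Olfr750 stretch, called in HP, held 8.

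Peaks were sparse in receptor windows. Their density was 15.1 peaks per Mb in LP 1 (95% Poisson interval 13.5 to 16.9), 7.44 in LP 2 (6.31 to 8.70), 7.77 in HP 1 (6.62 to 9.06) and 6.52 in HP 2 (5.47 to 7.72). The rest of the genome, 2627 Mb, held 21.9, 25.3, 24.6 and 27.2 peaks per Mb. LP 1 had the highest density in receptor windows and the lowest elsewhere, whereas the other libraries were close to each other in both. In chromatin from many cells, a mark in a few cells and a weak mark in all of them cannot be told apart. The ratio of receptor windows to the rest was 0.690, 0.294, 0.316 and 0.240, a mean log2 ratio of -1.51 ± 0.67 (SD, n = 4 libraries). It was below 0 in 4 of 4 libraries, and the exact sign-flip permutation test over libraries gave p = 0.13, two-sided, the smallest that 4 libraries allow. Without LP 1 the mean log2 ratio was -1.83 ± 0.21. Poisson intervals cover counting error only.

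The 3 receptor families were examined separately. Olfr windows held 14.7, 7.60, 8.70 and 6.73 peaks per Mb, Vmn1r windows 18.1, 8.69, 6.16 and 5.80, and Vmn2r windows 14.5, 6.13, 5.90 and 6.35, in the order LP 1, LP 2, HP 1, HP 2. The intervals of the 3 families overlapped within every library, and no test compared them. All lay below the rest of the genome except Vmn1r in LP 1, whose interval of 13.4 to 23.9 held the value of the rest, 21.9. Windows of other tissue-restricted families were small, so their densities rest on few peaks. The bitter taste receptors (Tas2r, 35 genes) had 6, 1, 0 and 0 peaks, or 26.45, 4.41, 0 and 0 per Mb, where a count of 0 allows up to 16.3 per Mb by the 95% Poisson interval, and the trace amine receptors (Taar, 15 genes) had 1, 1, 0 and 1, or 9.28 per Mb where there was a peak. The antimicrobial beta-defensins (Defb, 42 genes) had 6, 6, 4 and 2 peaks, or 13.9, 13.9, 9.25 and 4.62 per Mb. The hair keratin-associated proteins (Krtap, 57 genes) had 5, 10, 3 and 3, or 13.05, 26.1, 7.83 and 7.83 per Mb. Tas2r in LP 1 and Krtap in LP 2 were above the rest of the genome of their library, with intervals that held its value. Windows of all other protein-coding genes, the high end of the scale, held 29.8 to 45.6 peaks per Mb.

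**Figure D1:**
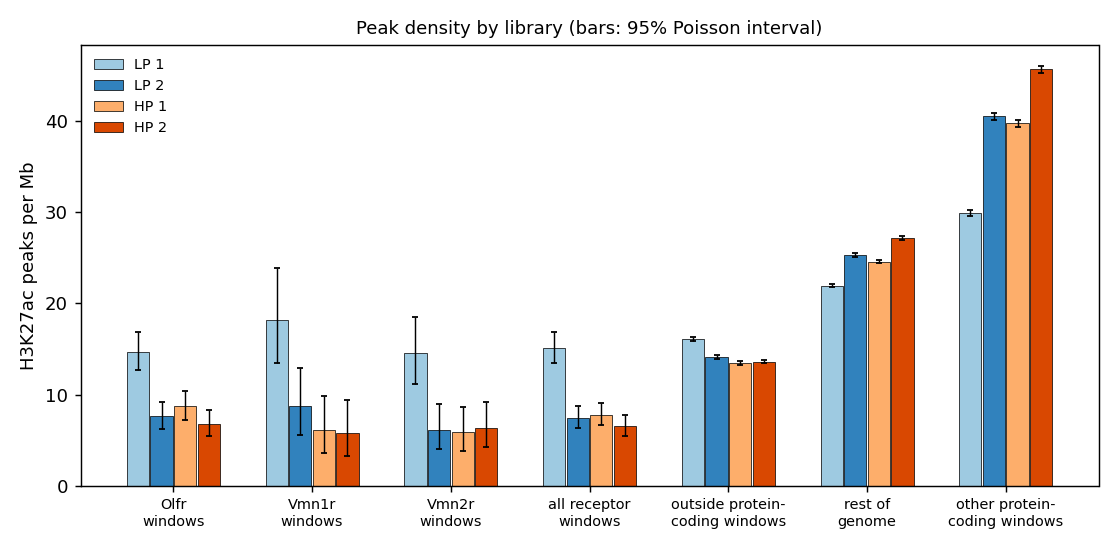
H3K27ac peaks per Mb (y axis) in windows of Olfr, Vmn1r and Vmn2r genes, in all receptor windows, outside every protein-coding window, in the rest of the genome and in windows of other protein-coding genes, for each of the 4 libraries (bars) with 95% Poisson intervals (error lines). LP 1 is at 15.1 peaks per Mb in receptor windows and the other libraries at 6.52 to 7.77, all below their own rest of the genome.

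A nearer comparison was sequence outside every protein-coding window, which held 16.1, 14.1, 13.4 and 13.6 peaks per Mb. Against it the mean log2 ratio of receptor windows was -0.72 ± 0.43 (SD, n = 4). In LP 1 the densities of receptor windows and of this sequence, 15.1 and 16.1, had overlapping intervals, and in the other 3 libraries receptor windows were lower. The deficit was spread over the genome. On the 13 chromosomes compared, the ratio of receptor windows to the rest of the same chromosome was below 1 on 12 in LP 1, with a median of 0.592, and on 13 in each other library, with medians of 0.233, 0.286 and 0.249. The exception was chromosome 4 in LP 1, where 16 peaks in 0.330 Mb gave a ratio of 2.00. The receptors fell into 70 clusters separated by 1 Mb, of which 21 had at least 20 genes. The densest of these differed between libraries. It was a Vmn1r cluster of 28 genes on chromosome 6 in LP 1 (33.8 peaks per Mb), an Olfr cluster of 23 genes on chromosome 11 in LP 2 (30.2) and HP 2 (15.1), and an Olfr cluster of 25 genes on chromosome 16 in HP 1 (18.8). Their windows covered 0.415, 0.265 and 0.266 Mb, so these densities rest on few peaks, and the ranking was not tested.

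Base composition moved with the density. Receptor windows had 37.9% G+C against 41.7% in the rest of the genome, and repeats made up 36.9% and 36.4%. The genome was cut into 10 kb tiles, and tiles mostly within receptor windows were set beside tiles outside every protein-coding window. In tiles under 38% G+C, the band with 1134 receptor tiles, receptor tiles held 14.3, 3.88, 6.70 and 4.23 summits per Mb and the other tiles 14.1, 4.93, 6.35 and 5.46. In tiles of 38 to 40% G+C, receptor tiles held 16.2, 7.47, 6.56 and 7.65 summits per Mb and the others 14.03, 7.42, 7.22 and 7.23. In the 266 receptor tiles of 40 to 42%, the values were 10.9, 12.03, 8.27 and 7.14, against 15.4, 12.2, 10.3 and 10.7. In tiles of 42% or more the 182 receptor tiles held 19.2, 19.8, 15.4 and 17.6 summits per Mb, and the others 19.1, 26.2, 23.7 and 24.8. The values of both kinds of tile were close in the bands under 40%, where most receptor tiles fall, receptor values were lower in all 4 libraries at 40 to 42%, and LP 2 and both HP libraries had lower receptor values in the highest band. The density of LP 1 changed less with G+C than that of the other libraries. No test was made over tiles, and the part of base composition in the low density was not tested.

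**Figure D2:**
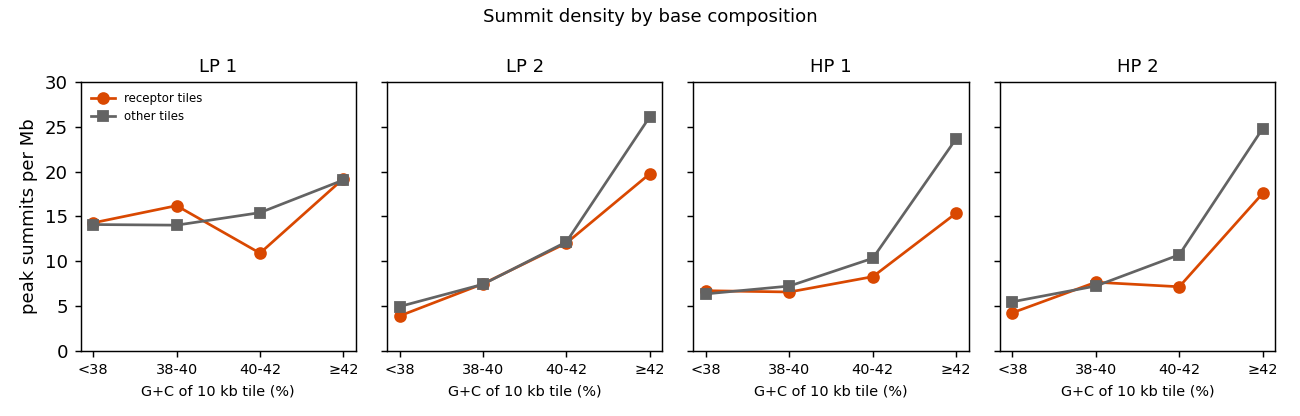
Peak summits per Mb (y axis) in 10 kb tiles grouped by G+C content (x axis, %), for tiles mostly within receptor windows (receptor tiles) and tiles outside every protein-coding window (other tiles), with 1 panel for each library. The lines run close together under 40% G+C, and in LP 2, HP 1 and HP 2 the other tiles reach 23.7 to 26.2 per Mb at 42% or more, above the receptor tiles at 15.4 to 19.8.

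Distance from other genes also moved with it. Only 0.119 Mb of the receptor windows, 0.571%, lay within 3 kb of the start of a protein-coding gene that is no receptor, against 8.90% of the rest of the genome. That small stretch held 67.2, 75.7, 84.1 and 58.8 summits per Mb, beside 65.5, 90.2, 92.8 and 99.0 in the rest of the genome at the same distance. At 300 kb or more from such a start, receptor windows held 15.5, 5.62, 7.95 and 4.46 summits per Mb and the rest 14.2, 7.66, 7.11 and 6.80. Between 30 and 100 kb receptor windows held 13.7, 6.87, 7.23 and 8.50, and the rest 18.2, 20, 18.5 and 20. The 95% Poisson intervals of receptor windows and the rest overlapped in all 4 libraries under 3 kb and at 300 kb or more. At the distances between them receptor windows were lower in all 4 libraries. There the intervals did not overlap in LP 2, HP 1 and HP 2, and in LP 1 they were apart only between 30 and 100 kb.

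Receptor peaks were small. Their median pileup, a count of the fragments over the summit, was 6, 10, 6 and 7 in LP 1, LP 2, HP 1 and HP 2, against 7, 11, 10 and 12 for all other peaks. Per 1000000 fragments of the library (scaled pileup) the medians were 0.523, 0.651, 0.522 and 0.491, against 0.610, 0.716, 0.871 and 0.842. Elsewhere both HP medians were above both LP medians. At receptors the medians of LP 1 and HP 1 were both 6 fragments. The mean log2 ratio was -0.47 ± 0.34 (SD, n = 4), with p = 0.13 in the exact permutation test. Median widths were 209, 275, 220 and 236.5 bp against 225, 317, 296 and 333 bp (log2 ratio -0.31 ± 0.18, exact p = 0.13). Median fold enrichments, the authors' ratio of summit pileup to local background, were 4.06, 3.98, 3.89 and 3.80 against 4.31, 4.36, 4.96 and 4.92 (log2 ratio -0.23 ± 0.15, exact p = 0.13). Each was lower than the rest in 4 of 4 libraries. Against sequence outside protein-coding windows the log2 ratios shrank to -0.25, -0.11 and -0.09. In LP 1 the medians of width (209 bp) and fold enrichment (4.06) were equal to those there. In LP 2 those of scaled pileup (0.651) and fold enrichment (3.98) were equal. Both HP libraries were lower in each measure.

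Many receptor peaks were near the smallest size that could be called. In LP 1, LP 2, HP 1 and HP 2, 57.8%, 42.6%, 59.9% and 52.9% of them were within 50 bp of the narrowest peak in the list, whose width was the mean fragment length of the library (167, 217, 184 and 192 bp). For all other peaks the shares were 46.1%, 32.2%, 31.6% and 27.9%. A −log10 q-value under 3 was held by 65.4%, 54.2%, 60.5% and 61.8% of receptor peaks and by 46.6%, 36.4%, 30.6% and 29.9% of the others.

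Receptor peaks rarely recurred. A peak that overlapped a peak of any other library by at least 1 bp was counted as found again. This held for 12 of 315 peaks in LP 1 (3.81%, 95% Wilson interval 2.19 to 6.54%), 16 of 155 in LP 2 (10.3%, 6.45 to 16.1%), 19 of 162 in HP 1 (11.7%, 7.64 to 17.6%) and 16 of 136 in HP 2 (11.8%, 7.37 to 18.3%). Of all other peaks 31.5%, 40.9%, 51.7% and 45.6% were found again. The mean difference was -33.0 percentage points (SD 5.29, n = 4), of the same sign in 4 of 4 libraries, with exact p = 0.13. Beside sequence outside protein-coding windows, where 11.4%, 22.6%, 32.9% and 32.5% were found again, the difference was -15.4 percentage points. Between replicates, 9 LP 1 peaks (2.86%) met an LP 2 peak and 16 HP 1 peaks (9.88%) met an HP 2 peak, against 24.1% and 48.4% of the other peaks.

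The shares found again were also taken within bands of −log10 q-value, of which the highest has no upper limit. Strength was not matched in it: the value exceeded by 10% of receptor peaks was 5.51, 6.12, 6.44 and 14.2 against 20.5, 28.1, 35.6 and 95.4. At a −log10 q-value of 5 or more, 13.9%, 30.3%, 56.0% and 51.7% of receptor peaks were found again (n = 43, 33, 25 and 29), against 70.9%, 70.8%, 81.5% and 72.5% of the others. Between 3 and 5 the shares were 1.52%, 15.8%, 7.69% and 4.35%, against 21.3%, 28.8%, 34.8% and 25.3%. Under 3 they were 2.43%, 0%, 2.04% and 0%, where 0 of 84 in LP 2 and 0 of 84 in HP 2 allow up to 4.37% by the Wilson interval, against 11.4%, 16.4%, 17.4% and 11.5%. Receptor peaks were lower in all 3 bands of all 4 libraries, with overlapping intervals in none but the middle band of LP 2.

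**Figure D3:**
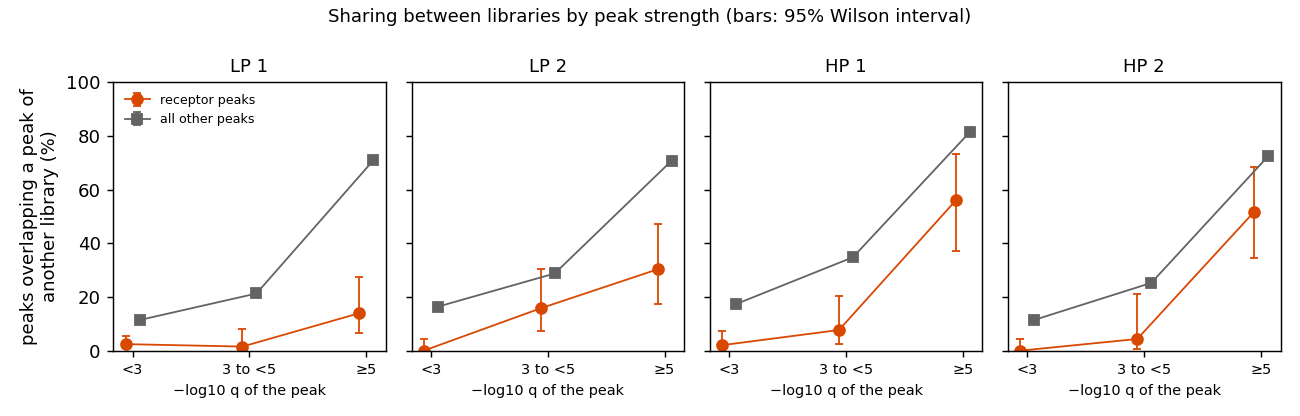
Share of peaks that overlap a peak of another library (y axis, %) by the −log10 q-value of the peak (x axis, 3 bands), for receptor peaks and all other peaks, with 1 panel for each library and 95% Wilson intervals as error lines. Receptor peaks lie below the other peaks in all bands, the highest of which has no upper limit, and in the highest band they reach 13.9% in LP 1 and 56.0% in HP 1.

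Of the 726 receptor regions, 705 (97.1%) were called in 1 library only, where 81.7% of all regions were. LP 1 alone gave 303 of them, LP 2 139, HP 1 143 and HP 2 120. Without LP 1 there were 423 regions, of which 405 (95.7%) were in 1 library, against 78.0% elsewhere. Regions called in 2 libraries numbered 12 and in 3 libraries 2. The 7 regions in all 4 libraries were 0.964% of the receptor regions, where the share over all regions was 6.61%. Those in both HP and neither LP library numbered 5, or 0.689% against 3.94%, and those in both LP and neither HP library 2, or 0.275% against 0.249%.

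Among single-library regions the highest −log10 q-value was at Olfr370 in LP 1 (10.2, scaled pileup 1.31), Olfr317 in LP 2 (12.2, scaled pileup 1.24), Olfr279 in HP 1 (9.33, scaled pileup 1.31) and Olfr984 in HP 2 (14.8, scaled pileup 1.26). The first 3 had their summits 149, 6 and 103 bp from the start of the receptor gene. Their fold enrichments were 7.61, 7.73, 6.90 and 9.34.

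Seen by gene, 921 of 1466 receptor genes (62.8%) had no peak in their window in any library, or 1113 (75.9%) without LP 1. At least 1 peak was present at 18.6%, 9.89%, 10.2% and 8.39% of receptor genes in LP 1, LP 2, HP 1 and HP 2, and at 68.9%, 75.0%, 71.0% and 72.7% of the 20472 other protein-coding genes. Windows of receptor genes are shorter, since the median gene length was 6.35 kb against 19.3 kb. The start is a fairer place to compare. A peak within 1 kb of the start was present at 4.98%, 2.18%, 2.52% and 1.84% of receptor genes and at 51.8%, 61.1%, 57.6% and 60.3% of the others. In all 4 libraries it was present at 2 receptor genes, Vmn1r4 and Olfr552, and at 9934 other genes (48.5%). No library had one at 1315 receptor genes and at 6474 others (31.6%).

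**Figure D4:**
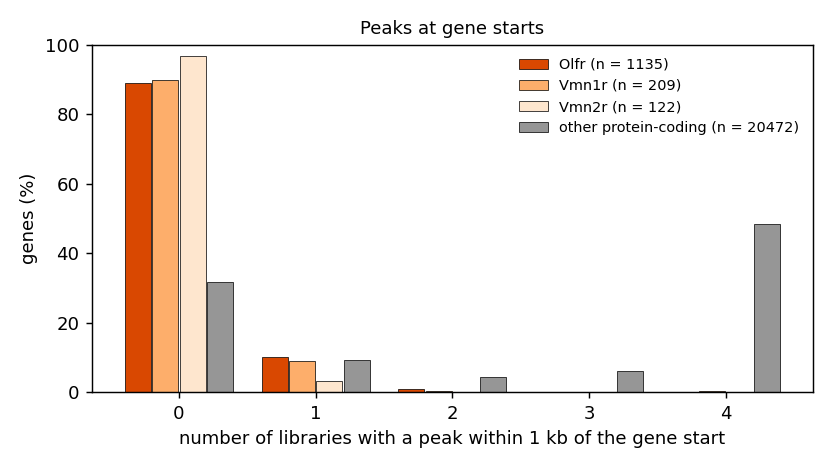
Share of genes (y axis, %) by the number of libraries with a peak within 1 kb of the gene start (x axis), for 1135 Olfr, 209 Vmn1r, 122 Vmn2r and 20472 other protein-coding genes. Receptor genes pile up at 0 libraries, whereas 48.5% of the other genes have a peak in all 4.

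Recurrence differed by the place in the window. Of 34 summits within 3 kb of another gene's start, 27 (79.4%) were in peaks found again. Of 156 within 1 kb of a receptor start 13 (8.33%) were, of 126 in other receptor exons 8 (6.35%), of 173 in receptor introns 6 (3.47%) and of 265 in the flanks 8 (3.02%). These counts add up over libraries, so that a shared region is counted in each library that holds it. With windows cut to the parts over 3 kb from other genes' starts, 1.63%, 6.16%, 7.24% and 7.81% of receptor peaks were found again.

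The 7 merged regions with a peak of each of the 4 libraries came in 2 kinds. The first kind, 5 regions, lay at the promoter of a neighbouring gene. The region in the Olfr1416 window was chr1:92472999-92474396, with its summit 104 bp from the start of Ndufa10, a subunit of respiratory complex I. Its scaled pileup of 7.33, 5.34, 9.06 and 11.2, in the order LP 1, LP 2, HP 1, HP 2, was the highest of the receptor regions in each library. The region chr6:56923343-56924666 lay 37 bp from the start of Nt5c3, a nucleotidase, and 254 bp from that of Vmn1r4, so that both genes share it. Its scaled pileup was 3.40, 3.58, 8.45 and 10.4. The region in the Olfr986 window, chr9:40191167-40193119, lay 249 bp from the start of Zfp202, which encodes a zinc finger protein, and had 3.31, 4.23, 4.79 and 7.72. The region in the Olfr15 window, chr16:3847140-3847634, lay 110 bp from the start of Zfp174, another zinc finger gene, with 1.22, 1.5, 1.83 and 5.33. The region in the Vmn2r57 window, chr7:41392832-41393402, lay 94 bp from the start of AI987944 and 55530 bp from the nearest receptor start, with 0.436, 0.912, 2.18 and 2.88. At all 5 both HP values were above both LP values, as at 74.8% of all regions called in all 4 libraries.

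The second kind, 2 regions, had no other protein-coding start within 14 kb. Both lay on chromosome 7, in the cluster of 129 Olfr genes that holds the class I olfactory receptors. The region at Olfr543 and Olfr544, chr7:102478131-102481146, had its summit 14997 bp from the start of Rrm1, a ribonucleotide reductase subunit. The nearest annotated transcript start of Olfr543, inside that gene, was 817 bp from the summit. The 5′ end of Olfr543, on the minus strand at 102481679, lay outside the region. The scaled pileup of the region was 0.872, 0.782, 1.31 and 1.89, from 10, 12, 15 and 27 fragments. The single LP peaks in it were 215 and 637 bp wide, whereas in HP 2 a peak of 2893 bp covered most of it. The LP 1 peak (102480355-102480569) and the LP 2 peak (102479262-102479898) did not overlap each other. HP peaks joined them into 1 region, so its pileups came from different places in the region. The region at Olfr552, chr7:102596497-102598721, had its summit 89 bp from the start of Olfr552, and the next other start, that of the ubiquitin ligase Trim21, was 32373 bp away. Its scaled pileup was 0.523, 1.24, 1.39 and 1.82, from 6, 19, 16 and 26 fragments. LP was lower than HP in both regions, as at 74.8% of all regions called in all 4 libraries. LP 1 was far below the rest at Olfr552. The cluster as a whole held 18.1, 10.4, 11.1 and 7.65 peaks per Mb, above all receptor windows together in each library.

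**Figure D5:**
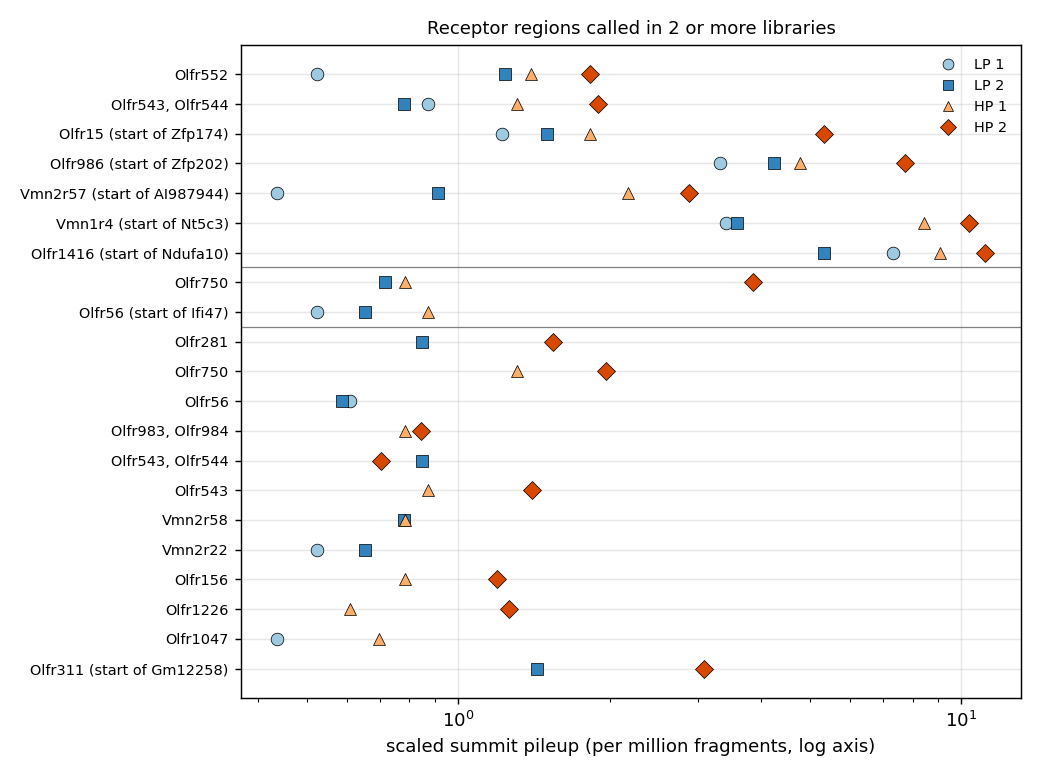
Scaled pileup at the summit (x axis, per 1000000 fragments, on a log axis) of the 21 receptor regions called in 2 or more libraries (y axis, named by the receptor genes whose windows they overlap, with the neighbouring gene where its start is within 3 kb), a point for each library that called the region. Lines separate regions called in 2, 3 and 4 libraries. In the 7 regions of all 4 libraries both HP points lie to the right of both LP points, an order held by 74.8% of all regions called in all 4.

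Regions called in both HP libraries and in neither LP library were few. The region with the lowest mean rank was chr14:51063529-51064091 in the Olfr750 window, with a scaled pileup of 1.31 in HP 1 and 1.96 in HP 2. It lay 6019 bp from the start of Rnase12, of the ribonuclease A family. Beside it, chr14:51064129-51065670 was called in LP 2 (0.716), HP 1 (0.784) and HP 2 (3.86), and the HP 2 value was the highest outside the promoters of other genes. The second region, chr4:43823704-43824861, had its summit 651 bp from the start of Olfr156, with 0.784 in HP 1 and 1.19 in HP 2. The third, chr2:89196414-89196777 in the Olfr1226 window, had 0.610 and 1.26. Olfr543 had a further HP region, chr7:102476903-102478038, with 0.871 and 1.40. In the Olfr983 and Olfr984 windows HP 2 had 10 peaks over 33.3 kb, HP 1 had 1 and the LP libraries had 0. Regions called in both LP libraries and in no HP library were lower, with 0.610 and 0.586 in the Olfr56 window and 0.523 and 0.651 in that of Vmn2r22.

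A peak at the receptor's own start in at least 2 libraries singled out a few further genes. Beyond Vmn1r4, Olfr552, Olfr543 and Olfr156, the rule named Olfr1328, Olfr317, Olfr877 and Olfr1186, each with a start peak in LP 1 and LP 2 and in neither HP library. In all, 13 genes had a start peak in 2 or more libraries, and the rule named the first 8 by number of libraries and rank. Of 1466 receptor genes, 10 had one in 2 libraries, 1 in 3 and 2 in 4. Among other protein-coding genes the shares were 4.25%, 6.24% and 48.5%. Which libraries held the start peaks was not compared with other genes. The others, named after their values were seen, were Olfr594 (LP 1 and LP 2), Vmn1r223 (LP 2 and HP 2), and Olfr983, Olfr275 and Olfr187 (HP 1 and HP 2). At the 4 genes with start peaks in LP alone among the first 8, the LP 1 and LP 2 peaks did not overlap each other, so they formed no shared region. The start peaks of Olfr594, Vmn1r223, Olfr275 and Olfr187 formed none either, whereas those of Olfr983 overlapped. Of the receptors known outside the nose, Olfr78, which responds to short-chain fatty acids, and Olfr16 and Olfr1393 had no peak in any library. Olfr558, a relative of Olfr78, had 1 peak in LP 1 and 1 in HP 1, which did not overlap, with scaled pileups of 0.610 in both. Olfr90 had 1 peak, in HP 2 (0.702). Olfr544, a receptor for azelaic acid, had 2 peaks in every library, which include the region it shares with Olfr543. None of the Olfr544 peaks lay within 1 kb of its start. In LP 1 and HP 1 they overlapped only its downstream flank, and LP 2 and HP 2 each had 1 in the gene body. Olfr15 had the peaks at Zfp174 and 1 more in HP 1 (0.958).

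The question whether LP and HP cells differed at receptor genes had 2 parts. The first was peak density. The log2 difference of HP from LP was -0.57 (a ratio of 0.672), and the exact permutation test of 2 against 2 libraries gave p = 0.667, where 0.33 is the smallest such a design allows. It rested on LP 1, since without it the difference was -0.06. Within replicate numbers, HP was below LP in both (7.77 against 15.1 and 6.52 against 7.44 peaks per Mb).

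The second was the pileup at the 7 regions called in all 4 libraries. In limma, over 12084 such regions, 485 (4.01%) were higher in HP and 0 (0%) were lower at an adjusted p of at most 0.05, with 4374 and 0 at an unadjusted p under 0.05. No other tool was run. With a replicate block 88 regions were higher. The median log2 difference over all these regions was 0.92 and over the 7 receptor regions 0.99, and both HP values were above both LP values at 7 of 7 receptor regions and at 74.8% of all. A receptor region passed once, the one in the Vmn2r57 window at the AI987944 promoter, at 1.99 ± 0.54 (log2, SE; adjusted p = 0.0358, or 0.0492 with the block). This region had 5, 14, 25 and 41 fragments in LP 1, LP 2, HP 1 and HP 2. In LP 1 its −log10 q-value was 1.80, near the calling cutoff, and without LP 1 its difference was 1.46. With values centred on each library's median its difference was 0.98 with an adjusted p of 1.00, and no region of the genome passed. The regions at Vmn1r4 (1.42 ± 0.54, adjusted p = 0.0776) and in the Olfr15 window (1.21 ± 0.54, adjusted p = 0.110) did not pass. At Olfr543 and Olfr544 (0.93, adjusted p = 0.175) and Olfr552 (0.99, adjusted p = 0.158) the difference was near the median of all regions, and after centring it was -0.08 and -0.02. The regions in the Olfr1416 and Olfr986 windows had 0.68 and 0.70, below that median, with adjusted p = 0.282 and 0.274.

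Receptor regions differed from others in sequence. The 201 bases around the summit had a median G+C of 42.3% against 48.3% in all other regions, and the median share of bases in repeats was 29.1% against 13.4% (means 41.7% and 27.7%). They held a median of 1 CpG against 2, and 38.7% held none against 18.4%. Among the regions called in 2 or more libraries the median was 3 CpG at receptors (n = 21) and 5 elsewhere. The windows around single summits ranged from 26 CpG at Ndufa10 and at Nt5c3 to 0 at Olfr552. Receptor genes lie in clusters of related copies, so it was asked how often a region holds sequence that occurs again in the genome. All 100-base words were unique in 81.4% of receptor regions and in 91.7% of others, and under 50% were unique in 55 receptor regions (7.58% against 2.78%). Those 55 were all called in a single library, as were 97.1% of receptor regions, and the 7 regions in all 4 libraries were fully unique. The part of repeated sequence in the single-library peaks was not tested.

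Words known to be bound by factors of the melanocyte lineage were about as frequent as elsewhere. The E-box words of MITF (TCACGTG or TCATGTG, either strand) were within 100 bases of the summit in 30 of 726 receptor regions (4.13%) and in 4.57% of all other regions. The AP-1 word (TGANTCA) was in 5.65% and 5.75%, and that of LEF1 (CTTTGAT, either strand) in 3.31% and 3.03%. A match is a description of the letters and says nothing of binding.

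The genes that serve the receptors were marked unevenly. Of 25 genes of olfactory and vomeronasal signalling, 6 had a start peak in all 4 libraries, 9 in 1 to 3 and 10 in none, where 48.5% of all protein-coding genes other than receptors had one in all 4 and 31.6% in none. Those with a start peak in all 4 included Gnai2, a G protein subunit (2.70, 4.23, 4.53 and 7.72), and Kdm1a, a histone demethylase that acts in receptor choice (11.4, 5.73, 8.97 and 15.5). The others, named after their values were seen, were Gnao1, Ric8b, Ebf4 and Ldb1. The 4 listed markers of olfactory sensory neurons differed among themselves. Omp and Cnga2, the cyclic nucleotide-gated channel, had no peak in any library. The adenylyl cyclase gene Adcy3 had a start peak in LP 2, HP 1 and HP 2 (3.0, 3.92 and 3.58) and no peak in LP 1. Gnal, the olfactory G protein subunit, had 3, 3, 2 and 3 peaks in its window, with a start peak in LP 2 (0.521).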

How the data were processed

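Peaks were taken as deposited. Per the methods and file headers, the authors trimmed the reads of each fragment, aligned to mm10 with Bowtie2 2.5.1 and ran MACS 3.0.0b1 on each library against the IgG library of its replicate number, with duplicates kept and a q-value cutoff of 0.05. The deposited fold enrichment is a ratio of summit pileup to local background, and the −log10 p-values and q-values are the authors' MACS output. The deposited pileup signal is an unscaled count of fragments. It was divided here by the library's total and multiplied by 1000000.

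Windows were built from GENCODE protein-coding genes on standard chromosomes, and bases other than N gave the Mb. A peak belonged to a window, and to a shared region, by an overlap of 1 bp. The distance of a summit from a gene start was taken to the nearest annotated transcript start, which can lie inside the gene. Libraries were compared by the exact sign-flip or permutation test, two-sided. Regions called in all 4 libraries were fitted with limma 3.58.1 in R 4.3.3 (log2 scaled pileup, Benjamini-Hochberg adjustment, no block). Its prior degrees of freedom were infinite, so that every region shared one variance. Replicate numbers pair LP with HP, as each number had its own IgG control and equal chromatin input. The replicate differences of LP and HP correlated at 0.0153 over 12084 regions. Interval arithmetic, word uniqueness and limma were tested on simulated data.

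The members, gene lists and alternatives were chosen with earlier results of these data known. Genes were named by rule: those with a region in all 4 libraries, up to 3 regions specific to HP and to LP by mean rank, up to 8 with start peaks in 2 or more libraries, a list of receptors known outside the nose, and up to 4 pathway genes. Alternatives covered the window, the q-value, the comparison sequence, the overlap, the scaling, the replicate block and leaving out each library. Python 3.11.15, numpy 2.4.6, pandas 2.3.3, scipy 1.17.1, numba 0.67.0 and matplotlib 3.10.9 were used. Reads and alignments were not used here. A further list of cell type markers is not reported here.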

Additional observations from a re-analysis of the deposited data

How the results depend on the processing

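The lower density, sharing, scaled pileup, width and fold enrichment of receptor peaks kept the direction of their mean over libraries under every alternative run. Some LP medians equalled those of sequence outside protein-coding windows, as given above. Mean log2 ratios were -2.20 to -0.72 for density, -0.58 to -0.25 for scaled pileup, -0.51 to -0.11 for width and -0.28 to -0.09 for fold enrichment. Differences in sharing were -36.7 to -15.4 percentage points. These tests could not pass 0.05 in this design. The density of HP against LP stayed between -1.09 and -0.06. With the replicate block it was -0.57, with exact p = 0.5, the smallest that 2 pairs allow, and 1 receptor region passed, as without the block. The count of receptor regions higher in HP was 0 with centring, quantile normalization, mean summit pileups or a q-value of at most 0.01, and 0 to 5 when a library was left out, where the lone sample of an arm is assumed to vary like the other group. The 5 arose without HP replicate 1. Centring reversed the regions at Olfr1416 (-0.33), Olfr543 and Olfr544 (-0.081), Olfr552 (-0.025) and Olfr986 (-0.31), and quantile normalization those at Olfr1416 (-0.15), Olfr543 and Olfr544 (-0.045) and Olfr986 (-0.29). Both remove the shift shared by most regions. Leaving out a library, an alternative added after seeing the data, gave 95.7 to 97.7% of receptor regions in 1 library and 67.4 to 75.9% of receptor genes without a peak. The median receptor pileup of 6 to 10 fragments limits what a single peak can show.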
